A study of Mus musculus with 9 samples.

Results

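The genes described here were silent or nearly so in every library labelled NHD13/MSI2 while they were counted in every control and every NHD13 library. A gene was taken if it had 3 or fewer raw counts in each of the 4 NHD13/MSI2-labelled libraries and 20 or more in each of the 3 control and 2 NHD13 libraries, and if it was not on chromosome X or Y. These limits were met by 46 of the 24060 named genes of the count table, or by 0.434% of the 10603 genes off the sex chromosomes that had 20 or more counts in each control and NHD13 library. Because the counts of all 9 libraries chose the genes, their difference between the NHD13/MSI2-labelled libraries and the others is given as a description and carries no test.

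The libraries were RNA-seq libraries of LSKs (CD45.2 Lin-lo Sca1+ Kit+ cells), the bone marrow fraction that holds haematopoietic stem cells (HSCs) and multipotent progenitors. All donors were of strain C57BL/6, and the marrow was transplanted with CD45.1+ helper cells into lethally irradiated CD45.1 recipients that were given doxycycline for 3 months, with an age of 4 months on every label. Control marrow came from C57BL/6 mice, NHD13 marrow carried a NUP98-HOXD13 transgene driven by the Vav promoter, which is active across blood cells, and NHD13/MSI2 marrow carried in addition the KH2-Col1A1-tet-on-MSI2 and ROSA26 reverse transactivator alleles, through which doxycycline switches on Musashi-2. The study asked how the RNA-binding protein MSI2 alters the expression programme of myelodysplastic stem cells before disease is visible. Nothing in the labels says whether libraries came from separate mice, so the p-values below measure the spread between these libraries, which may be partly technical. Although all are labelled LSK, 2 control libraries (replicates 2 and 3) were named with MPP and HSC at submission, and control replicate 1 with bulk.

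LSKs are a mixture. A small number of HSCs, which divide rarely and express genes for their niche contacts and quiescence, stand beside many multipotent progenitors that have begun to lose that programme. Zinc finger repressors, Polycomb proteins, Wnt receptors and nitric oxide signalling have all been studied in such cells, and several of the genes described here, among them Fgd5 and Zfp521, are known from the most immature end of the compartment. In bulk libraries of a mixture, fewer cells of a type and less RNA per cell cannot be told apart.

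Library totals were 19242153 to 23013493 counts, so that 3 counts correspond to 0.12 to 0.195 CPM (counts scaled to the library total, with TMM factors). Both genes of the sorting gate were found in all 9 libraries, at levels that moved with the groups. Ly6a, which encodes Sca1, was at 48.3 to 89.8 CPM in control and NHD13, at 254 to 375 in NHD13/MSI2-labelled replicates 1 to 3 and at 98.6 in replicate 4. Kit was at 1121 to 2254 CPM in control and NHD13 and at 908 to 1402 in the NHD13/MSI2-labelled libraries. The part of these differences in the silence described below was not tested. Hoxd13, the mouse counterpart of the HOXD13 in the fusion transgene, had 0 counts in the 3 control libraries and 13 to 25 in the other 6. Whether these are reads of the transgene is not given in the sources used here. Msi2 stood at 223 to 316 CPM in control, at 139 and 111 in NHD13, at 77.1 to 88.0 in NHD13/MSI2-labelled replicates 1 to 3 and at 241 in replicate 4. Msi2 was thus not higher than in NHD13 in 3 of the 4 libraries, and the libraries are called by their label throughout. Whether reads of the MSI2 transgene are counted under the mouse symbol is not given in the sources used here, so these counts need not read the transgene. Replicate 4 also stood apart from its group in the counts of other genes (chi-square per gene of 398 to 426 against replicates 1 to 3, which differed from each other by 18.8 to 32.3). Without replicate 4, 63 genes met the limits, and for the genes outside them, described further on, 9 neighbours in place of 8, 20 list genes in place of 21 and, as with it, 4 partners were called lower than in NHD13.

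Sequences are shown for the promoters of the genes with the highest levels for which a window was at hand, since members that are silent together may be compared at their start sites, and for the small RNAs that lie within the non-coding member Mir99ahg. Windows of 250 bases before to 50 bases after the start were found in RefSeq (GRCm38.p6) for 33 of the 46 genes. Capitals mark a GATA motif (GATAA), a Runx motif (TGTGGT), the GC box of Sp1 (GGGCGG), the CCAAT box of NF-Y (the same 5 letters) and the TATA box (TATAAA). Both strands were searched, and neighbouring matches can run together.
Vill, chr9:119052528-119052827, plus strand: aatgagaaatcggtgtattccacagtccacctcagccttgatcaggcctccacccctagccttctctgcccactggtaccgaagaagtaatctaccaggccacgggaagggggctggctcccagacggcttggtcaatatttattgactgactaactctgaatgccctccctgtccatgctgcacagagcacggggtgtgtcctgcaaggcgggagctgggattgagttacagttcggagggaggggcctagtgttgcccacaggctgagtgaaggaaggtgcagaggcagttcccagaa
Pard3b, chr1:61638574-61638873, plus strand: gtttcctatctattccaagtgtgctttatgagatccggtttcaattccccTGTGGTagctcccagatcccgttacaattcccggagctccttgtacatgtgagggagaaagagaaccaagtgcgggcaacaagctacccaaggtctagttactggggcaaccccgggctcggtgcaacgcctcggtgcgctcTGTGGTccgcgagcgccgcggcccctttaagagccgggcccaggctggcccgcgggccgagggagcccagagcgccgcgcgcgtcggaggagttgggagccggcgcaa
Tanc2, chr11:105589736-105590035, plus strand: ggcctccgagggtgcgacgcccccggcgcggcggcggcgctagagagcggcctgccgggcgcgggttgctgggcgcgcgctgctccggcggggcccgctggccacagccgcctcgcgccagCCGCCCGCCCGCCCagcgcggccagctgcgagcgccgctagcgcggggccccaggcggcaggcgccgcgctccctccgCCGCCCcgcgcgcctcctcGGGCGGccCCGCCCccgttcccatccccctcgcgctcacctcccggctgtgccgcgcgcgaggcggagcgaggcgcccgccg
Mboat2, chr12:24831349-24831648, plus strand: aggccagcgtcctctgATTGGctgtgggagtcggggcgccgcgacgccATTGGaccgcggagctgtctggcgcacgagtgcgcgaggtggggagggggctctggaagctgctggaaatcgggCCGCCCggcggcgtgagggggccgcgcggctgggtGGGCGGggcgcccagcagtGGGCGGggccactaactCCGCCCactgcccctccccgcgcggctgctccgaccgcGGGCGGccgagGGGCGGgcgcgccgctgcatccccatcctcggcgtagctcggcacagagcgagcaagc

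The windows of Tanc2 and Mboat2 were dense in the dinucleotide CpG, with a ratio of observed to expected CpG of 1.05 and 0.928, and held 6 Sp1 GC boxes each. Pard3b had a ratio of 0.884 and 2 Runx matches, while the window of Vill, at 0.295, held none of the motifs marked. The first of 3 windows of Fam171a1, the next gene by level, is not shown. It had a ratio of 0.161 and likewise held none of these motifs. Across all windows of the silenced genes the median ratio was 0.548, and 18 of 41 windows (43.9%) were above 0.6, beside a median of 0.384 and 35.8% of the 32851 windows of all genes. The Sp1 GC box was in 46.3% of the windows of the silenced genes and 35.7% of all windows, CCAAT in 34.1% and 37.4%, GATA in 19.5% and 25.4%, TATA in 7.32% and 13.6%, and Runx in 9.76% and 16.8%. The 32851 windows belong to 27025 genes, taken whether or not they were expressed here, while every silenced gene was counted in control and NHD13. The part of expression in these differences was not tested. A match is a run of letters and not a site shown to be bound.

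Mir99ahg is a long non-coding RNA whose gene hosts 3 microRNA hairpins, and the mature RNAs of their 5′ arms are given with the seed (bases 2 to 8) in capitals, from RefSeq (GRCm38.p6).
mmu-miR-99a-5p, chr16:77598940-77598961, plus strand: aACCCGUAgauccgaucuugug
mmu-let-7c-5p, chr16:77599672-77599693, plus strand: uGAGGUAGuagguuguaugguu
mmu-miR-125b-5p, chr16:77646279-77646300, plus strand: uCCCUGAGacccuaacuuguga
The 3 seeds differ from each other. The hairpin genes Mir99a, Mirlet7c-1 and Mir125b-2 were each at a mean of 0 CPM in all 3 groups, so these libraries measured the host transcript and not the microRNAs.

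The silence was near complete. Summed over the 46 genes, the control libraries held 10754, 7493 and 10838 counts and the NHD13 libraries 7096 and 3234, whereas the NHD13/MSI2-labelled libraries held 14, 10, 19 and 15. Of the 46 genes, 21 had no count in any of the 4 NHD13/MSI2-labelled libraries, 21 had 1 to 3 counts over all 4 and the remaining 4 had more, with 6 as the highest sum. In each of the 4 libraries 35 to 37 genes were at 0. For the genes at 0 throughout, a floor of 3 counts over the group puts NHD13 at least 28.7-fold to at least 222-fold above the NHD13/MSI2-labelled group, with a median bound of 84.3-fold, and control at least 30.9-fold to at least 408-fold above it. Floors and intervals, here and below, cover counting error only and leave out the spread between libraries. The choice of genes by itself makes these ratios large, so they describe the genes and test nothing. Levels before the silence were low to moderate, with a mean over control and NHD13 of 1.17 to 34.0 CPM and a median of 5.43 CPM.

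**Figure D1:**
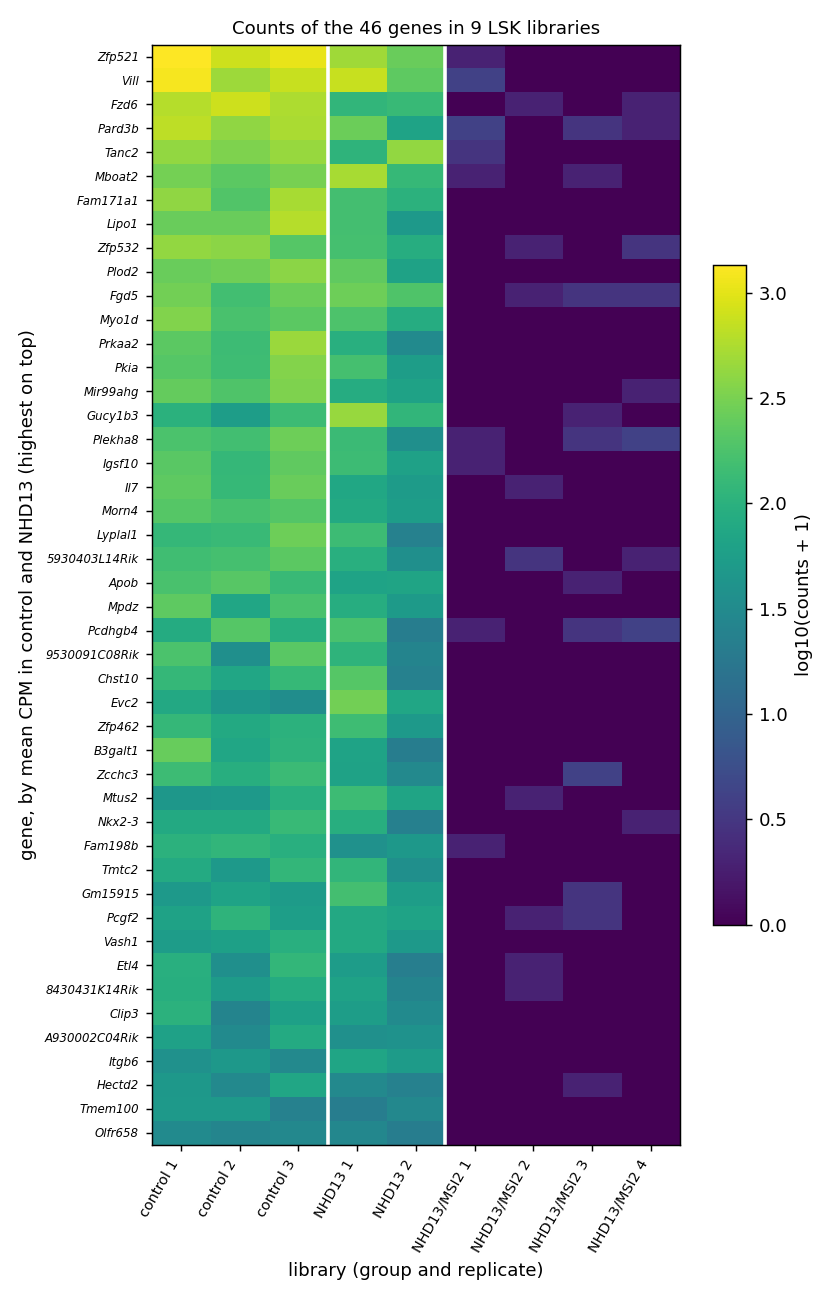
Counts of the 46 genes (rows, highest mean CPM on top) in the 9 libraries (columns), coloured as log10(counts + 1), with white lines between control, NHD13 and NHD13/MSI2. The 4 NHD13/MSI2-labelled columns hold 0 to 3 counts in every row, as the choice of genes requires, and 21 rows are at 0 in all 4.

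Fitted across all genes by edgeR's quasi-likelihood test with a Benjamini-Hochberg adjusted p under 0.01, 44 of the 46 were called lower in NHD13/MSI2-labelled libraries than in NHD13, where 2.58% of all 13355 genes tested were called lower. Against control all 46 were called lower, beside 6.55% of the genes tested. Both counts follow from the way the genes were chosen and nothing is read from them. The genes without a call against NHD13 were Tmem100 and the non-coding 9530091C08Rik. All 46 had passed the filter on low counts.

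At the limits, 8 genes lay just inside. Vill, Pard3b, Plekha8, Pcdhgb4 and Zcchc3 reached 3 counts in an NHD13/MSI2-labelled library, and B3galt1, Olfr658, Tmem100 and again Pcdhgb4 were at 20 counts in an NHD13 library. Just outside on the upper side stood Arhgap32, Runx1t1, Vsig10, Gstt1 and Fah, each with a highest NHD13/MSI2-labelled count of 4. Runx1t1, a corepressor gene, had 34 to 212 counts in control and 642 and 166 in NHD13. On the lower side were Pcdhga11, with a lowest count of 19, and Btc, Ephb6 and Sis, with 18. Btc and Ephb6 had no count in any NHD13/MSI2-labelled library and were left out only by their 18 counts in NHD13 replicate 2.

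The same measure was also read in a library that the choice did not use. The genes then at 3 or fewer counts are by definition the 46, so each share reflects only how many genes the other 3 libraries chose. It is a description and no independent support. When genes were chosen on 3 of the NHD13/MSI2-labelled libraries and then read in the 4th, 83.6% of 55 genes were at 3 or fewer counts in replicate 1, 78.0% of 59 in replicate 2, 65.7% of 70 in replicate 3 and 73.0% of 63 in replicate 4. Of all genes off the sex chromosomes with 20 or more counts in each control and NHD13 library, 1.79%, 1.58%, 1.11% and 2.25% were at 3 or fewer in these libraries. The median count of the chosen genes in the library left out was 0 for replicates 1, 2 and 4 and 0.5 for replicate 3.

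Of the chosen genes, 1 had 20 or more counts in the library left out for each of replicates 1, 2 and 4, and 3 had for replicate 3. Further genes lay between the limit and 20 counts in each library, the most in replicate 3. Among these were 4930486L24Rik at 19, Klhl8 at 17 and Ccnjl at 16 in replicate 3, and Yes1 at 17 in replicate 2. Acer2 had 34 counts in replicate 1, Ptk2, which encodes focal adhesion kinase, had 33 in replicate 2, and the endothelial and HSC receptor gene Tek had 23 in replicate 4. In replicate 3 the genes above 20 were Arhgap29 at 44, Slamf1 at 41 and Epor, the erythropoietin receptor gene, at 31. Leaving NHD13 replicate 2 out of the choice raised the number of genes from 46 to 77, and leaving NHD13/MSI2-labelled replicate 3 out raised it to 70.

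**Figure D2:**
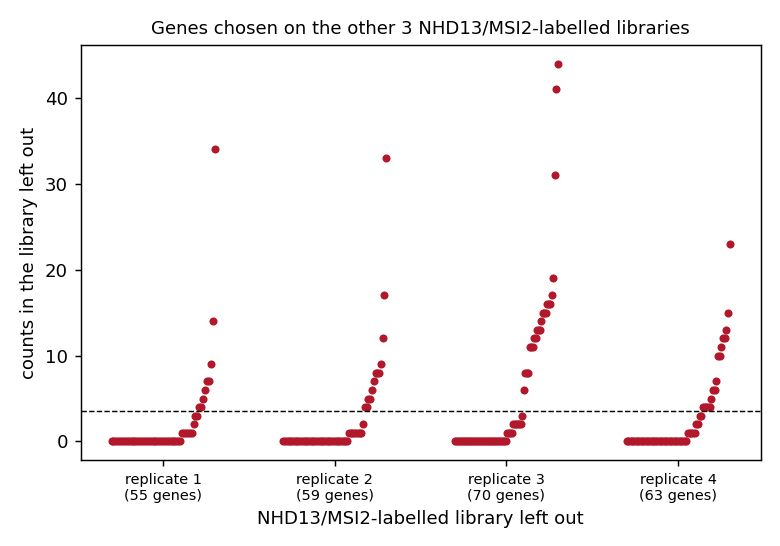
Each point is 1 gene chosen on the other 3 NHD13/MSI2-labelled libraries, placed at its count (vertical axis) in the library left out (horizontal axis), with the dashed line between 3 and 4 counts. In each library the same 46 genes lie under the line, as the choice requires, and the highest points are Acer2 at 34, Ptk2 at 33, Arhgap29 at 44 and Tek at 23.

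The 46 genes were grouped by what their products do, after their names were known. The transcription and chromatin genes were Zfp521, Zfp532, Zfp462, Nkx2-3, Pcgf2 and Zcchc3. Zfp521 encodes a zinc finger cofactor of immature haematopoietic cells that opposes B cell differentiation, and it was the highest of all members. It had 1357, 772 and 1066 counts in control, 485 and 258 in NHD13, and a single count, in replicate 1, over the 4 NHD13/MSI2-labelled libraries. Both NHD13 libraries were below the 3 controls. In CPM the level in NHD13 was 1361 times that in the NHD13/MSI2-labelled group (95% exact interval 244 to 53820).

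Zfp532 encodes a zinc finger protein found in a complex with Zfp592 and Zfp687. It had 425, 384 and 200 counts in control, 163 and 89 in NHD13, and 0, 1, 0 and 2 in the NHD13/MSI2-labelled libraries. The NHD13 level was 154 times the NHD13/MSI2-labelled level (95% exact interval 52.0 to 751). Its relatives Zfp592 and Zfp687 were tested and not called (edgeR adjusted p = 0.764 and 0.861). Zfp462, a large zinc finger gene linked to heterochromatin, and the homeobox gene Nkx2-3, needed for the vessels of spleen and gut lymphoid tissue, were lower expressed, and Zfp462 was at 0 in all 4 NHD13/MSI2-labelled libraries. Pcgf2 (Mel18), a subunit of Polycomb repressive complex 1, had 62, 109 and 56 counts in control, 77 and 64 in NHD13, and 0, 1, 2 and 0 in the NHD13/MSI2-labelled libraries. NHD13 and control overlapped. Its paralogue Bmi1 was not called (edgeR adjusted p = 0.820).

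The signalling group held 10 genes, and 5 of them were at 0 in every NHD13/MSI2-labelled library. Fzd6, a Wnt receptor of the planar cell polarity pathway, had 611, 791 and 561 counts in control, 116 and 128 in NHD13, and 0, 1, 0 and 1 in the NHD13/MSI2-labelled libraries. The 3 groups did not overlap, and the 2 NHD13 libraries were close to each other. The NHD13 level was 223 times the NHD13/MSI2-labelled level (95% exact interval 61.2 to 1855) and the control level 1070 times (296 to 8841).

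Gucy1b3 encodes the beta subunit of soluble guanylate cyclase, the receptor for nitric oxide. It had 100, 54 and 138 counts in control, 448 and 114 in NHD13, and 0, 0, 1 and 0 in the NHD13/MSI2-labelled libraries. In counts NHD13 replicate 1 was above all controls and replicate 2 within their range. In CPM NHD13 was 1029 times the NHD13/MSI2-labelled group (95% exact interval 184 to 40726).

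Prkaa2, the alpha-2 catalytic subunit of the energy sensor AMPK, had 222, 138 and 460 counts in control and 95 and 31 in NHD13, and none in the NHD13/MSI2-labelled libraries. Pkia, which encodes an inhibitor of protein kinase A, had 199, 144 and 357 counts in control and 160 and 54 in NHD13, and likewise none. The NHD13 levels were at least 76.9-fold and at least 131-fold above the NHD13/MSI2-labelled group. Their close relatives were still counted. Prkaa1 encodes the other alpha subunit and was not called (edgeR adjusted p = 0.665), and Pkib was at 23.4 to 27.3 CPM in the NHD13/MSI2-labelled libraries against 7.82 and 12.9 in NHD13 (log2 fold change 1.29, SE 0.31, edgeR adjusted p = 0.0348), which did not pass the threshold of 0.01.

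Fgd5, which encodes an activator of the GTPase Cdc42 and is used to mark HSCs, differed from most members in that NHD13 kept the control level. It had 289, 153 and 269 counts in control, 274 and 184 in NHD13, and 0, 1, 2 and 2 in the NHD13/MSI2-labelled libraries. NHD13 was 168 times the NHD13/MSI2-labelled level (95% exact interval 71.4 to 519). Il7, the cytokine on which B and T lymphocyte precursors depend, had 224, 124 and 257 counts in control, 72 and 51 in NHD13, and 1 in all 4 NHD13/MSI2-labelled libraries together. Both NHD13 libraries were below the controls.

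Itgb6, an integrin subunit that takes part in TGF-beta activation, Vash1, an enzyme that removes the last tyrosine of alpha-tubulin, and Tmem100, a gene of the endothelial BMP response, were all at 0 in the 4 NHD13/MSI2-labelled libraries. They had 23 to 94 counts in control and 20 to 80 in NHD13. Plekha8, a glycolipid carrier of the Golgi, had 173, 151 and 277 counts in control, 135 and 35 in NHD13, and 1, 0, 2 and 3 in the NHD13/MSI2-labelled libraries, the highest sum of any member together with Pard3b and Pcdhgb4. Its gene overlaps Fkbp14 on the other strand. Fkbp14 was at a mean of 2.76 CPM in control, was already low in NHD13 at 0.710, and was at 0 in the NHD13/MSI2-labelled libraries. It was not called against NHD13 (edgeR adjusted p = 0.0169).

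Genes of polarity, the cytoskeleton and adhesion numbered 12. Vill, a villin-like actin-binding protein, had 1218, 467 and 730 counts in control, 740 and 224 in NHD13, and 3, 0, 0 and 0 in the NHD13/MSI2-labelled libraries. Pard3b, a relative of the polarity scaffold Par-3, had 653, 407 and 537 counts in control, 266 and 65 in NHD13, and 3, 0, 2 and 1 in the NHD13/MSI2-labelled libraries. Both NHD13 libraries were below control for Pard3b, while for Vill NHD13 replicate 1 lay among the controls.

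Tanc2, a scaffold protein with ankyrin repeats, was, with Fzd6, 1 of the 2 among the 20 highest members that had more CPM in NHD13 replicate 2 than in replicate 1. It had 425, 338 and 439 counts in control, 109 and 417 in NHD13, and 2, 0, 0 and 0 in the NHD13/MSI2-labelled libraries. Its paralogue Tanc1 showed the opposite order in NHD13, with 18.5 CPM in replicate 1 and 0.346 in replicate 2, and 0.0517 to 1.45 in the NHD13/MSI2-labelled libraries (edgeR adjusted p = 0.112).

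Myo1d, an unconventional myosin, Mpdz, a scaffold of tight junctions with many PDZ domains, and Morn4 were at 0 in all 4 NHD13/MSI2-labelled libraries. Myo1d had 344, 170 and 220 counts in control and 182 and 87 in NHD13, which puts NHD13 at least 164-fold above the NHD13/MSI2-labelled group. Morn4 had 202, 167 and 197 counts in control and 79 and 54 in NHD13, with both NHD13 libraries below control. Igsf10, an immunoglobulin superfamily protein, had 213, 120 and 235 counts in control, 140 and 61 in NHD13, and 1 count over the NHD13/MSI2-labelled libraries. It overlaps Med12l, which is treated with the neighbours below.

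Evc2, a ciliary protein of the hedgehog pathway, had the highest bound for NHD13 over the NHD13/MSI2-labelled group. It had 77, 44 and 33 counts in control, 293 and 71 in NHD13, and none in the NHD13/MSI2-labelled libraries, so that NHD13 was at least 222-fold and control at least 56.0-fold above them. NHD13 replicate 1 was above every control, and replicate 2 was within their range in counts. Mtus2, a microtubule-associated protein, was at 45, 48 and 93 counts in control and 141 and 66 in NHD13, with 1 count over the NHD13/MSI2-labelled libraries. The others were Clip3, Etl4 and the protocadherin Pcdhgb4. Pcdhgb4 shares its last exons with the whole gamma cluster, and its counts are uncertain for that reason.

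The enzymes and other proteins were 12 genes, of which 8 were at 0 in every NHD13/MSI2-labelled library. Mboat2, an acyltransferase of membrane phospholipids, had 303, 218 and 311 counts in control, 529 and 123 in NHD13, and 1, 0, 1 and 0 in the NHD13/MSI2-labelled libraries. The 2 NHD13 libraries lay on opposite sides of the controls. Plod2, which hydroxylates collagen lysines, had 263, 284 and 388 counts in control and 231 and 62 in NHD13, and none in the NHD13/MSI2-labelled libraries, a difference of at least 179-fold from NHD13.

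Lipo1, a lipase, had 262, 259 and 603 counts in control and 157 and 49 in NHD13, and Fam171a1, a membrane protein, had 410, 189 and 521 and 156 and 102. Both had no count in the NHD13/MSI2-labelled libraries, with control at least 408-fold and at least 407-fold above, the highest bounds against control. B3galt1, a galactosyltransferase, had 254, 70 and 105 counts in control and 64 and 20 in NHD13, and none in the NHD13/MSI2-labelled libraries. Lyplal1, Chst10, Tmtc2 and Olfr658 were at 0 in these libraries too. Apob, the lipoprotein of chylomicrons and low-density lipoprotein, Fam198b and Hectd2 each had 1 count over the 4 libraries. Olfr658, an olfactory receptor gene, was the lowest of all members, with 20 to 31 counts in each control and NHD13 library.

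The 6 non-coding RNAs were Mir99ahg, 5930403L14Rik, 9530091C08Rik, Gm15915, 8430431K14Rik and A930002C04Rik. Mir99ahg had 246, 186 and 332 counts in control, 87 and 62 in NHD13, and 0, 0, 0 and 1 in the NHD13/MSI2-labelled libraries, and its NHD13 level was 273 times that of the NHD13/MSI2-labelled group (95% exact interval 48.2 to 10850). Gm15915, annotated as antisense to Ntn4, was at 48, 65 and 52 counts in control and 157 and 54 in NHD13, and had 2 counts, both in replicate 3, in the NHD13/MSI2-labelled libraries. Whether counting used the strand is not given in the sources used here, so reads of an antisense gene and its partner cannot be told apart. Ntn4 itself was at a mean of 0.0558 CPM in control and 0.256 in NHD13.

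The difference between NHD13 and control was bounded by the choice of genes only from below, at 20 counts in each library. Donor sex was not balanced in this comparison. Xist, the RNA of the inactive X chromosome in females, had 21712 and 21664 counts in control replicates 1 and 3. It had 49 in control replicate 2 and 5 and 3 in the NHD13 libraries. The part of sex in the fold changes of NHD13 over control was not tested. By edgeR's quasi-likelihood test none of the 46 genes was called in NHD13 over control, where 0.21% of all genes tested were called lower and 0.824% higher. At an unadjusted p under 0.05, 10 of the 46 were lower and 2 higher, beside 5.83% and 7.66% of the genes tested. DESeq2 called 3 lower at an adjusted p under 0.01, Fzd6, Zfp521 and Mir99ahg, and none higher, where it called 1.63% and 2.72% of its tested genes.

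The signs leaned one way. The fold change was below 0 for 34 of the 46 genes and above 0 for 12, with a median of -0.73 on the log2 scale, beside 0.017 for all genes tested, of which 48.0% were below 0. Both NHD13 libraries were below all 3 controls in CPM for 18 genes and above all 3 for 3 genes. The share of all genes tested that was separated in this way was not counted, so nothing is read from these numbers. The 3 genes above control were Evc2, Gucy1b3 and Itgb6. Over the 15 or 16 alternative fits that held a gene, 34 genes had the same sign throughout, and 12 had the other sign in at least 1 fit.

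Fzd6 had the most negative fold change. At 22.4 to 37.5 CPM in control (mean 28.3 ± 8.1, SD, n = 3) and 5.33 and 6.32 in NHD13 (5.83 ± 0.70, SD, n = 2), it was lower by 2.28 on the log2 scale (SE 0.43, edgeR adjusted p = 0.0231). Over 16 alternative fits the adjusted p ranged from 1.3e-07 with DESeq2 to 0.124, and without NHD13/MSI2-labelled replicate 4 it was 0.00931, past the threshold. Next came Prkaa2 at -1.94 (SE 0.70), Lipo1 at -1.70 (SE 0.64), and Mir99ahg and B3galt1 at -1.60 each (SE 0.53 and 0.80). None of these 4 passed, with edgeR adjusted p of 0.183 to 0.493.

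The 5 most positive fold changes were those of Evc2 (1.96, SE 0.72), Gucy1b3 (1.69, SE 0.62), Gm15915 (1.06, SE 0.75), Mtus2 (0.90, SE 0.65) and Itgb6 (0.80, SE 0.64), with edgeR adjusted p of 0.244 to 0.742. For Evc2 and Gucy1b3 the size rested on NHD13 replicate 1, which was at 13.5 and 20.6 CPM where replicate 2 was at 3.51 and 5.63. Over the alternative fits the fold change of Evc2 ranged from 0.68 to 2.61 and that of Gucy1b3 from 0.47 to 2.33. These genes were therefore silent in the NHD13/MSI2-labelled libraries without a lower level in NHD13.

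**Figure D3:**
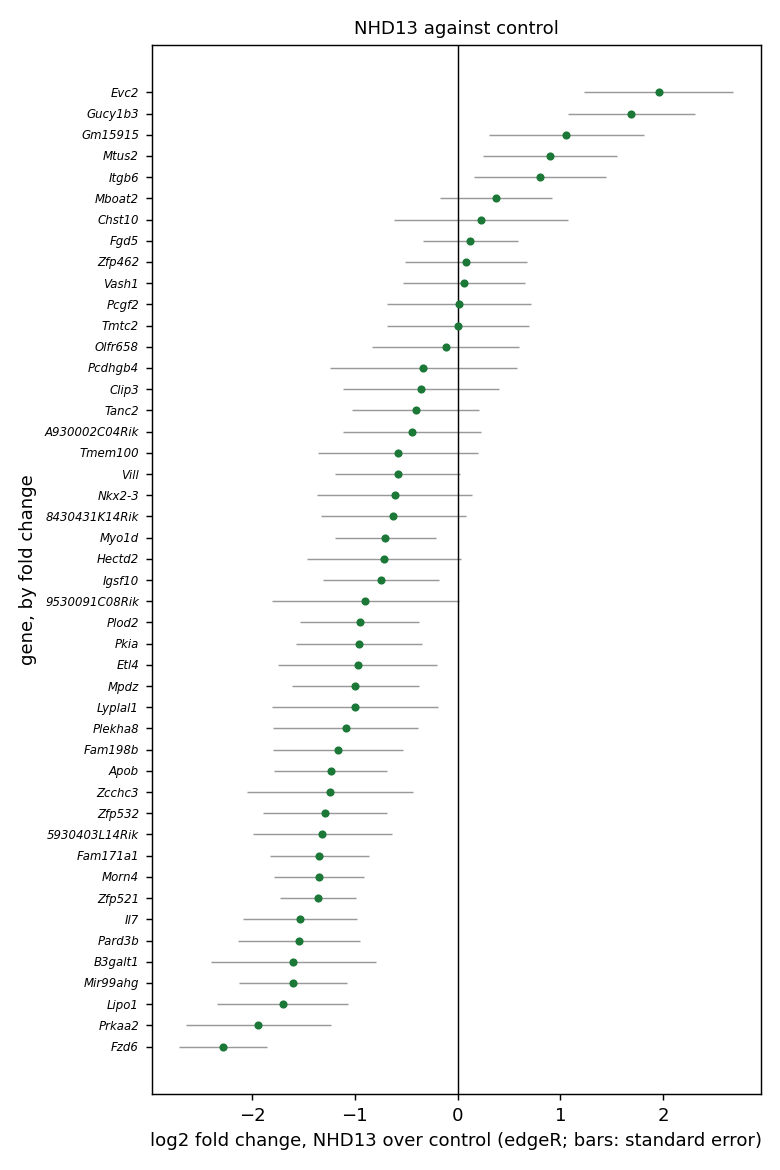
Log2 fold change in NHD13 over control (horizontal axis) for each of the 46 genes (vertical axis, by fold change), from edgeR with all 9 libraries, with bars of 1 standard error. The values run from -2.28 (Fzd6) to 1.96 (Evc2), 34 of them lie left of 0, and none passed an adjusted p of 0.01.

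By role, the median fold change of NHD13 over control was -0.92 for the transcription and chromatin genes, -0.77 for signalling, -0.64 for polarity, cytoskeleton and adhesion, -0.97 for the enzymes and other proteins and -0.76 for the non-coding RNAs. In the same order 4 of 6, 6 of 10, 10 of 12, 9 of 12 and 5 of 6 genes were below 0. These are descriptions of groups formed after the genes were known.

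The 2 NHD13 libraries differed from each other. NHD13 replicate 2 was below replicate 1 for 40 of the 46 genes (87.0%), beside 52.5% of all genes tested, and the median difference in log2 CPM was -0.91, beside -0.029. Summed over the 46 genes, CPM were 440, 356 and 433 in control, 326 in NHD13 replicate 1 and 160 in replicate 2, and 0.499 to 0.973 in the NHD13/MSI2-labelled libraries. The HSC genes of a marker list moved the same way between the NHD13 libraries, with summed CPM of 4961 in replicate 1 and 1664 in replicate 2. So did every other marker or pathway list that was read. Among these were the megakaryocyte and platelet genes (3286 and 915) and the erythroid genes (2402 and 518). The part of any list in the difference was not tested.

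**Figure D4:**
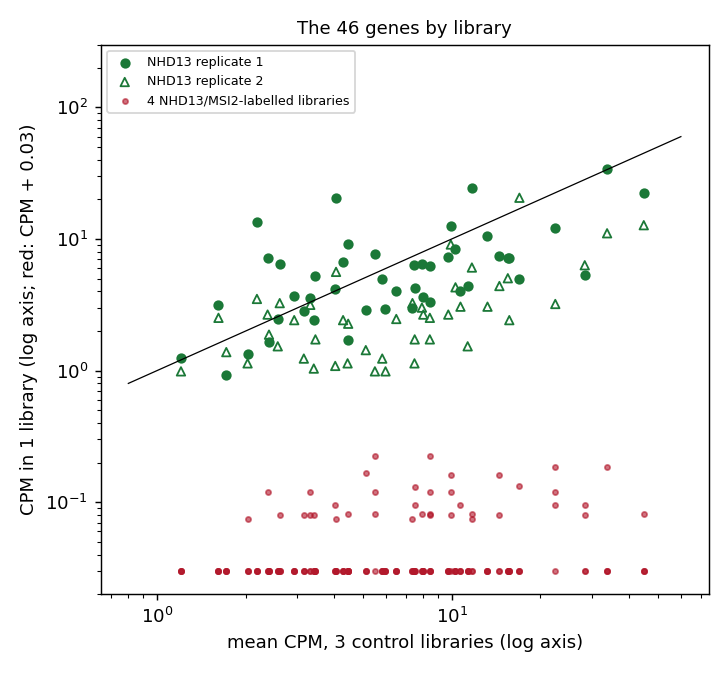
CPM of each of the 46 genes in single libraries (vertical axis, log scale) against its mean over the 3 control libraries (horizontal axis, log scale), with the line of equal values. Filled circles are NHD13 replicate 1, open triangles NHD13 replicate 2, which is below replicate 1 for 40 genes, and red dots the 4 NHD13/MSI2-labelled libraries, raised by 0.03 CPM so that 0 can be drawn.

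The members that belong to marker or pathway lists were Fgd5 and Zfp532 (HSC genes), Evc2 (hedgehog and cilium genes) and Fzd6 (Wnt pathway genes). Of the other 93 tested genes of these 3 lists, which did not take part in the choice, 21 (22.6%) were called lower in the NHD13/MSI2-labelled libraries than in NHD13, by edgeR at an adjusted p under 0.01, against 2.58% of all genes tested. The HSC list held most of them, and its membership was chosen with earlier results of these data known. There 17 of 33 other genes were called lower and none higher (3 higher at an unadjusted p under 0.05, and 1 by DESeq2), and the median log2 fold change was -3.09, beside -0.028 for all genes tested.

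Among the HSC genes called lower were transcription factors. Meis1, a Hox cofactor, was at 704 to 1014 CPM in control, 522 and 158 in NHD13 and 4.16 to 11.7 in the NHD13/MSI2-labelled libraries (log2 fold change against NHD13 -5.69, SE 0.53, edgeR adjusted p = 0.000700). Hlf, a transcription factor typical of HSCs, was at 284 to 477 CPM in control, 26.1 in NHD13 replicate 1 and less in replicate 2, and 0.0499 to 0.779 in the NHD13/MSI2-labelled libraries (-5.86, SE 0.60, edgeR adjusted p = 0.00109). The groups did not overlap for either gene in this contrast, and each kept at least 1 count in all 4 NHD13/MSI2-labelled libraries.

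The other marker lists held no member. Of the endothelial-type genes 6 of 22 were lower and 1 was higher, and of the megakaryocyte and platelet genes 5 of 20 were lower. Of the GMP genes (granulocyte-monocyte progenitors) 2 of 16 were higher, Csf1r and Csf3r, and the summed CPM of that list were 2638 to 3575 in control, 5836 and 5083 in NHD13 and 10944 to 18641 in the NHD13/MSI2-labelled libraries. The summed CPM of the HSC list were 3840 to 5521, 4961 and 1664, and 2238 to 2639, and those of 18 erythroid genes 2512 to 2925, 2402 and 518, and 174 to 307. The part of these cell-type markers in the silence of the 46 genes was not tested.

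On the other 2 lists few genes were called. Of 29 other hedgehog and cilium genes, Evc and Ttc8 were lower and the median log2 fold change was 0.014. Ttc8, a gene of the BBSome that carries cargo into cilia, fell from 22.3 CPM in the first NHD13 library to between 0.517 and 2.99 in the NHD13/MSI2-labelled libraries. Of 31 other Wnt pathway genes, Fzd3 and Vangl1 were lower and Ptk7 was higher, with a median of -0.021. Vangl1, a planar cell polarity gene, was at 9.38 CPM in NHD13 replicate 1 and 83.8 in replicate 2 and at 0 to 0.698 in the NHD13/MSI2-labelled libraries. The number of list genes called lower was 5 without NHD13 replicate 1 and 9 to 12 without any one control or without NHD13/MSI2-labelled replicate 1, 2 or 3. It was 1 when only the NHD13 and NHD13/MSI2-labelled libraries were fitted.

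Several members have a partner subunit or a close paralogue, and 103 such genes were listed by family for 31 members, after the members were known. Of the 88 that could be tested, 4 were called lower in the NHD13/MSI2-labelled libraries than in NHD13, or 4.55%, and none higher, where 2.58% and 0.584% of all genes were called. At an unadjusted p under 0.05, 20 partners were lower and 9 higher, and DESeq2 called 8 and 4. Both subunits of 2 heteromeric complexes were among the low genes. Partner subunits of other members were not called. Among them were Itgav for Itgb6 (edgeR adjusted p = 0.772), Prkab1 for Prkaa2 (edgeR adjusted p = 0.936) and Rnf2 for Pcgf2 (edgeR adjusted p = 0.447).

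Evc forms a complex with Evc2 at the base of cilia. Evc was at 2.74, 1.14 and 0.480 CPM in control, 8.23 and 4.54 in NHD13, and 0.0517, 0, 0 and 0 in the NHD13/MSI2-labelled libraries (log2 fold change -8.40, SE 1.04, edgeR adjusted p = 0.00224). Gucy1a3, the alpha subunit of soluble guanylate cyclase, was at 51.2, 38.1 and 41.9 CPM in control, 84.5 and 17.4 in NHD13, and 1.40, 0.947, 0.498 and 4.67 in the NHD13/MSI2-labelled libraries (-4.80, SE 0.78, edgeR adjusted p = 0.00656). In both pairs NHD13 replicate 1 was the highest library for both partners. The others called lower were Fzd3 (-3.61, SE 0.65, edgeR adjusted p = 0.00972), a Wnt receptor like Fzd6, and Plekha5 (-1.74, SE 0.25, edgeR adjusted p = 0.00412). Among the partners without a call, Itgb3 was at -3.79 (SE 0.70, edgeR adjusted p = 0.0109) and Clip2 at 1.41 (SE 0.27, edgeR adjusted p = 0.0122). The number of partners called lower was 0 without NHD13 replicate 1, and 1 or 2 without NHD13 replicate 2, without NHD13/MSI2-labelled replicate 1 or 2, or without any one control. It was 0 when only the NHD13 and NHD13/MSI2-labelled libraries were fitted.

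The 46 genes lay on 16 chromosomes, with at most 5 on any of them. Among the 43 genes with a position in the annotation, only Il7 and Pkia, which are 124628 bases apart on chromosome 3, were within 500000 bases of each other. Positions are from GENCODE M21 (GRCm38), whereas the submitters' processing notes name mm9. Fzd6 lies on the plus strand of chr15:39006034-39038188, Fgd5 on the plus strand of chr6:91978878-92076004, Evc2 on the plus strand of chr5:37338499-37425055 and Gucy1b3 on the minus strand of chr3:82032006-82074689. Over the 43 members with an annotated transcript, the median gene span was 66206 bases, beside 23236 for all genes tested, and the median longest transcript 4731 bases, beside 3330. Median GC content of that transcript was 47.6%, beside 49.5%, and it had 9 exons, beside 8.

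The nearest tested protein-coding genes on each side of the 43 genes with a position were read as well, with a gene on 1 side only for Fam171a1, since their values played no part in the choice. Of 84 such neighbours, 8 (9.52%) were called lower in the NHD13/MSI2-labelled libraries than in NHD13 and none higher, beside 2.58% and 0.584% of all genes tested. At an unadjusted p under 0.05, 24 were lower and 3 higher, and DESeq2 called 17 and 2. When the nearest 2 genes on each side were taken, 14 of 166 (8.43%) were lower. The neighbours, partners and list genes called lower overlap, so their counts are not separate results. Evc is in each of these sets. Gucy1a3 is a neighbour and a partner, Fzd3 a partner and a list gene, and Plscr4 a neighbour and a list gene.

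Evc lies 1605 bases from Evc2 and Gucy1a3 lies 17738 bases from Gucy1b3, so the 2 complexes named above are each encoded by adjacent genes. Med12l, a paralogue of a Mediator kinase module subunit, overlaps Igsf10. It was at 27.7 to 40.3 CPM in control, 80.3 and 75.1 in NHD13 and 2.79 to 6.51 in the NHD13/MSI2-labelled libraries (log2 fold change -4.01, SE 0.30, edgeR adjusted p = 0.000289), and it was called under all 16 alternative fits, which held for no other neighbour. Its reads and those of Igsf10 on the other strand may be shared.

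Tmem98, 30150 bases from Myo1d, was at 43.4 to 55.4 CPM in control, 32.7 and 9.88 in NHD13 and 0 to 0.827 in the NHD13/MSI2-labelled libraries (-5.73, edgeR adjusted p = 0.00215). Plscr4, a scramblase gene on the HSC list, lies 49767 bases from Plod2 and was at 41.2 to 48.6, 31.9 and 13.7, and 0.0997 to 1.10 CPM (-5.16, edgeR adjusted p = 0.002). Farther off were Fam160a2, at 723906 bases from Olfr658, Tmem38b, at 1083029 bases from Zfp462, and Slc6a15, at 1768286 bases from Tmtc2, with log2 fold changes of -4.13, -3.68 and -5.65. The number of neighbours called lower was 2 without NHD13 replicate 1, 4 without NHD13/MSI2-labelled replicate 1, and 1 when only the NHD13 and NHD13/MSI2-labelled libraries were fitted.

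**Figure D5:**
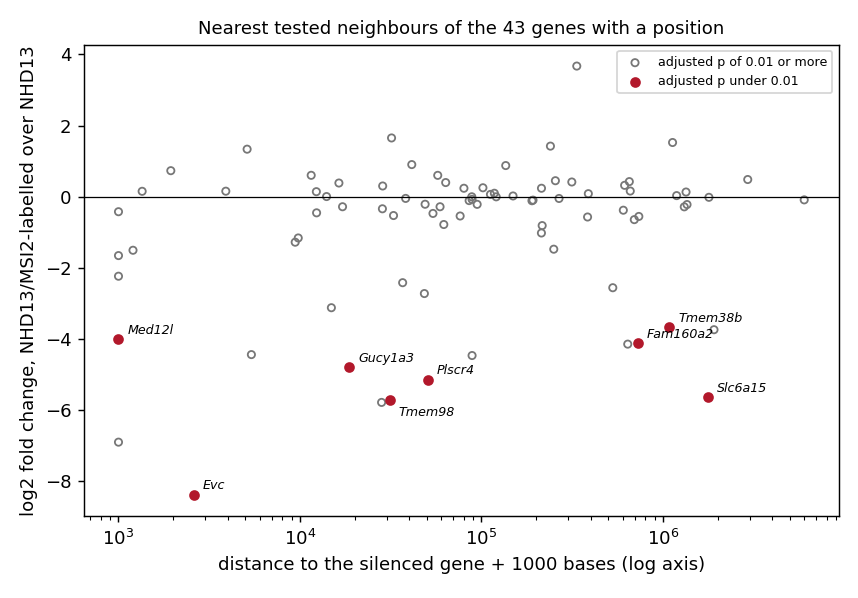
Log2 fold change in the NHD13/MSI2-labelled libraries over NHD13 (vertical axis) of the nearest tested protein-coding gene on each side of the 43 silenced genes with a position, against its distance plus 1000 bases (horizontal axis, log scale). Filled points are the 8 genes with an edgeR adjusted p under 0.01, all below 0, from Evc at 1605 bases and -8.40 to Slc6a15 at 1768286 bases and -5.65.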

How the data were processed

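RNA from sorted LSKs of 9 samples was sequenced, and the authors deposited raw counts for each gene symbol, with a column of whole numbers for each library and no pooling of replicates. STAR, HTSeq, DESeq and the build mm9 are named in the submitters' processing notes, and the roles, versions, annotation and strand setting are not given in the sources used here. Samples were put in groups by their labels, and each column name matched a single sample.

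In the table the names after the March genes stood 2 rows too high, which is seen in Xist (0 counts over all libraries as deposited, 43499 after the move) and Uty (0 and 16513). A shift of 2 rows was therefore applied to 11942 names, and 13 rows whose name stayed unsettled, with 0.0253% to 0.0323% of a library, were left out. With the names as deposited 48 genes meet the limits, of which 22 are among the 46. 3 members (5930403L14Rik, 9530091C08Rik and 8430431K14Rik) were placed on a chromosome by RefSeq alone.

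Differential expression was tested with edgeR 4.0.16 in R 4.3.3 (filterByExpr with the group, TMM factors, glmQLFit and glmQLFTest on all 9 libraries at once), with Benjamini-Hochberg adjustment over all genes and a threshold of 0.01. The fit, which has 2 NHD13 libraries, takes the spread of a gene over the 3 groups. DESeq2 1.42.0 was an alternative, as were RLE factors, other filters, a robust fit, a fit of only the 2 groups compared, the replicate number as a block and each library left out. CPM use the TMM-scaled library sizes. Floors are 3 counts, and ratios carry 95% exact (Clopper-Pearson) intervals of counts summed over the libraries of a group, without the spread between libraries. The test was also run on counts simulated from its own fitted means and spreads. Such counts hold no outlying library, so that run cannot show how the test performs on these libraries. No 2 replicates agreed within sampling noise (chi-square per gene of 18.8 or more), so each was counted as 1 sample.

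The members, the gene lists, the partners and the rule for named genes were chosen with earlier results of these data known. Named were the 20 members with the highest mean CPM over control and NHD13, the 5 most positive and 5 most negative fold changes in NHD13 over control, members on a list, members by role, the genes nearest each limit, neighbours and partners called, and list genes called. Roles, partners and Tanc1, Pkib, Clip2, Itgb3, Fkbp14, Ntn4 and Runx1t1 were taken up after their values were seen. The values of 2 genes that fall under the rule are not reported here. Positions and transcript features are from GENCODE M21 (GRCm38), in which 22871 symbols matched directly and 799 by synonym, with 390 unmatched. Sequences are from RefSeq (GRCm38.p6).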

Additional observations from a re-analysis of the deposited data

Results flagged for a closer look

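Mmrn1, a gene on the HSC and megakaryocyte lists that encodes a platelet and endothelial matrix protein, was at 1.05 CPM in NHD13/MSI2-labelled replicate 2, while the other 3 NHD13/MSI2-labelled libraries were at 6.79 to 7.72 CPM. It was drawn out because 1 sample lay far from the rest of its group, by Dixon's test at the 95% level. Of 17 genes examined in this way 1 was drawn out, and chance flags about 1 in 20 groups. Mmrn1 is not a member of the silenced genes.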

How the results depend on the processing

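The number of silenced genes was 83 when at least 10 counts were asked of each control and NHD13 library and 20 when at least 50 were asked, and it was 46 to 77 when 1 library was left out. The lowest share at 3 or fewer counts in a library left out of the choice was 64.5% to 65.9% under other limits. For NHD13 over control, members called lower were 3 with DESeq2, 1 at an adjusted p under 0.05 and 0 to 1 with 1 library left out. Neighbours called lower were 17 with DESeq2, 15 at 0.05, 14 for the nearest 2 genes, 1 in the fit of only the 2 groups compared and 2 to 10 with 1 library left out, and neighbours called higher were 2, 1 and 1 in the first 3 of these. List genes called lower were 1 in the fit of only the 2 groups compared and 5 to 20 with 1 library left out. Partners, whose alternatives were chosen after seeing the data, were called lower in 8 cases with DESeq2 and at 0.05, in 0 in the fit of only the 2 groups compared and in 0 to 4 with 1 library left out, and higher in 4 with DESeq2 and at 0.05 and in 0 to 2 with 1 library left out. The cause of these shifts was not tested, except that a fit of only the 2 groups compared, or of a lone NHD13 library, has fewer samples from which to estimate the spread. A lone NHD13 library was assumed to vary like the other groups.

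Of the 29 genes outside the members with a call that were followed, 29 had the same sign under every alternative, 2 were called under every one (Med12l and Meis1) and 27 were not called in the fit of only the 2 groups compared. With the replicate number as a block the list genes called lower were 13 in place of 21, and no other count moved by more than 1.5 times. The deviations of same-numbered libraries correlated at -0.106 to 0.204. Differently numbered libraries were not compared in this way, so these values cannot decide whether the numbers pair samples. Library depth limits statements to about 0.12 to 0.195 CPM, so a member at 0 may have been transcribed below that level.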

Other observations

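The same count limits were met by 12 X-linked genes, which were left out of the 46. They were Dmd, Nap1l3, Bex1, Mageh1, Lancl3, Sytl5, Morc4, Magee2, Hs6st2, Lrch2, Mid2 and Zfp711, and no Y-linked gene met the limits. Dmd encodes dystrophin, and Bex1 and Mageh1 belong to families that are clustered on chromosome X. X-linked genes made up 20.7% of the 58 genes within the limits and 3.39% of the 10975 genes with 20 or more counts in each control and NHD13 library. Seen from the chromosome, 3.23% of 372 X-linked and 0.434% of 10603 other genes were within the limits. Xist, the RNA that coats the inactive X chromosome in females, had 21712 and 21664 counts in control replicates 1 and 3 and 3 to 49 in the other 7 libraries, so the control group holds marrow of both sexes and the other groups hold none with Xist at that level. The part of the donors' sex in these X-linked values was not tested.

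Without any demand on NHD13, 137 genes off the sex chromosomes had 3 or fewer counts in each NHD13/MSI2-labelled library and 20 or more in each control library. Just above the upper limit, 14 genes with 20 or more counts in each control and NHD13 library reached 4 to 5 counts in an NHD13/MSI2-labelled library, and 55 reached 4 to 10, so the 46 are the lower end of a run of genes with no gap at the limit.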
